A study of Mus musculus with 6 samples.

Results

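The genes described here encode the translation initiation factors (gene symbols that begin with Eif1 to Eif6) and the translation elongation factors (symbols that begin with Eef), together with the kinases, inhibitors and methyltransferases that carry the same names. They were taken by symbol alone from probe sets that the platform annotation pairs with 1 gene. This gave 151 probe sets for 57 genes. The array holds 45037 probe sets beside its controls, each a set of short oligonucleotides, of which 34945 carry 1 symbol and stand for 18193 genes. Eif2s3x (3 probe sets) and Eif2s3y (2 probe sets), which lie on the sex chromosomes, were left out, and 8 further probe sets carried several symbols and were not used. Eif4ebp3 is named only on such a probe set. Eif2s1 and Eif4g1 had no probe set with 1 symbol, so no values are given for them.

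RNA came from muscle of 3 mice labelled SIRT6KO and 3 mice labelled wild type (KO and WT below), each on its own Affymetrix array. Both groups share the 129SvJ strain background. The labels give no age, sex or named muscle and do not describe the knockout allele. They call the replicates biological and say nothing more on how the mice were chosen.

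Xist read 715 to 1166 in KO and 24.5 to 31.3 in WT at its brightest probe set, and the Y-linked Eif2s3y read 1.1 to 4.1 in KO and 44.5 to 77.1 in WT. These sex-linked transcripts part the mice exactly as the labels do, so genotype and sex cannot be told apart in any result here. Sirt6 read 22.6, 18.3 and 13.7 in KO and 23.2, 15.1 and 21.3 in WT, so the groups overlapped. The labels do not say which exons were removed, and this probe set gives no test of the genotype. The array medians lay between 11 and 13.5 in KO and between 10.8 and 15 in WT. Hybridization controls of WT replicate 1 were 1.85 times those of WT replicate 2, against 0.977 to 1.01 times in the other 4 arrays. Skeletal muscle markers (Acta1, Ckm, Mylpf, Tnnt3, Des and Myh4) summed to between 51100 and 51900 in KO and between 50000 and 82700 in WT, in the range of the brightest probe sets, with WT replicate 1 alone above 51900.

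Translation starts when eIF2 brings the initiator tRNA to the small ribosomal subunit, eIF3 holds that subunit, and the eIF4F complex (the cap-binding protein eIF4E, the scaffold eIF4G and the helicase eIF4A) brings in the mRNA. The 4E-binding proteins block eIF4E until the kinase mTORC1 phosphorylates them, and eIF2 kinases slow initiation under stress. During elongation eEF1A delivers aminoacyl-tRNAs and eEF2 moves the ribosome along, and eEF2 kinase inhibits eEF2. In skeletal muscle this machinery is set by feeding, insulin, amino acids and load, and Eef1a2 is the eEF1A gene of adult muscle fibres.

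Promoter sequence is described before the array values, though the motifs were chosen with earlier results of these data known. Genes of the translation machinery are classical carriers of the E-box CACGTG, a site bound by MYC and related factors. In the RefSeq promoter windows (build GRCm38.p6, 250 bases before to 50 after each start), 46 of the 57 genes had an entry, and the letters CACGTG stood in at least 1 window of 12 of them, or 26.1%. Of the 14367 genes on the array that had a promoter entry, 10.3% held the same letters, as did 7.15% of all 32851 windows. This motif reads the same on both strands. The 12 genes were Eef1aknmt, Eef2, Eef2k, Eif1b, Eif3a, Eif3f, Eif3k, Eif4a1, Eif4e, Eif4h, Eif5a and Eif5a2. The letters GTAAACA, a FoxO site, stood on either strand in 0 of the 46 genes and in 3.38% of array genes. The letters TGATGNAA, part of an ATF4 site, stood in 1 gene, Eef2k, and in 3.24% of array genes. Neither of these was found in the windows printed here. A match is a string of letters and not a shown binding site.

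The windows of 3 genes, picked with the array values known, are printed with CACGTG in capitals. Eif4e read lower in KO, and Eef2 and Eif4b read higher, but none of these differences passed the test given below. Eif4b holds no such letters. Neither does Eif4g3, which also read higher and is not printed. Each printed window is the 250 bases before the start, on the + strand, at chr3:138527018-138527267 for Eif4e, chr10:81176381-81176630 for Eef2 and chr15:102073523-102073772 for Eif4b. In Eif4e the letters begin 228 and 64 bases before the start, and the other start listed for that gene has none. In Eef2 they begin 43 bases before the start.
Eif4e: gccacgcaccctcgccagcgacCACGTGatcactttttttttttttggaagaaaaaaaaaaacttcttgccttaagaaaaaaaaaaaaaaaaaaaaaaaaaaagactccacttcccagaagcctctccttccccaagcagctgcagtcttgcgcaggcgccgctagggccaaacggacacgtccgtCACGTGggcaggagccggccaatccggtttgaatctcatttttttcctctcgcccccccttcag
Eef2: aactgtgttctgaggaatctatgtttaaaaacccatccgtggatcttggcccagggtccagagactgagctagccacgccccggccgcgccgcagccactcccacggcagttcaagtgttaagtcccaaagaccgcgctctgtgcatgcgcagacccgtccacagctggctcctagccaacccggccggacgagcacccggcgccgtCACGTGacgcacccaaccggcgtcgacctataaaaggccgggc
Eif4b: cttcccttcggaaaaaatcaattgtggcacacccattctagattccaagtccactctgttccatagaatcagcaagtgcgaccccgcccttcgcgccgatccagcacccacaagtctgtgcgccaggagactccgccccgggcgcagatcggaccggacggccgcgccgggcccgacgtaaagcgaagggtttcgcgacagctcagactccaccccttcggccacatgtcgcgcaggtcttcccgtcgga

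No factor gene passed limma's test between KO and WT. At an adjusted p under 0.05 over all probe sets, 0 of the 151 probe sets were called, against a background of 0.00888% (4 of 45037), and the lowest adjusted p of a member was 0.472. At an unadjusted p under 0.05, 20 of the 151 were higher in KO (13.2%, background 3.57%) and 10 were lower (6.62%, background 4.99%), against 8.56% of all probe sets in either direction. These counts turned on single arrays. The count of higher members was 37 with KO replicate 1 left out (24.5%, against 7.88% of all probe sets) and 22 with WT replicate 1 left out (14.6%, against 4.22%). It was 9 with KO replicate 2 left out (5.96%, against 1.94%) and 10 with KO replicate 3 left out (6.62%, against 2.27%). It was 10 with WT replicate 2 left out (6.62%, against 2.61%) and 5 with WT replicate 3 left out (3.31%, against 1.79%). The count of lower members lay between 3 and 12 in these fits. That was 1.99% without WT replicate 1 (against 2.87% of all probe sets) and 7.95% without WT replicate 3 (against 6.7%). In 17 probe sets the 3 KO arrays all lay above the 3 WT arrays (11.3%, background 5.02%), and in 9 they all lay below (5.96%, background 7.29%). Probe sets of 1 gene share a transcript and are not independent, and the members were chosen with results of these arrays known. With each gene represented by the probe set of highest mean, 40 of 57 genes had a difference above 0 (70.2%), against 46.8% of all 18193 genes, and the median log2 difference was 0.10, against -0.02 over all genes. That median rested in part on single arrays, since it was 0.03 with KO replicate 3 left out and 0.02 with WT replicate 3 left out, against 0.25 with KO replicate 1 left out. In these fits the median over all genes was -0.03, -0.07 and 0.01, so part of the move was shared by the whole array. Above 0 lay 31, 31 and 38 of the 57 genes, and the share of all genes above 0 is not given for these fits. With all 6 arrays, 8 genes were higher at an unadjusted p under 0.05 (14.0%, background 3.54%) and 4 were lower (7.02%, background 6.29%). Differences are on the log2(intensity + 16) scale, KO minus WT, which understates those of dim probe sets: 33 of the 151 probe sets had a mean under 16.

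**Figure D1:**
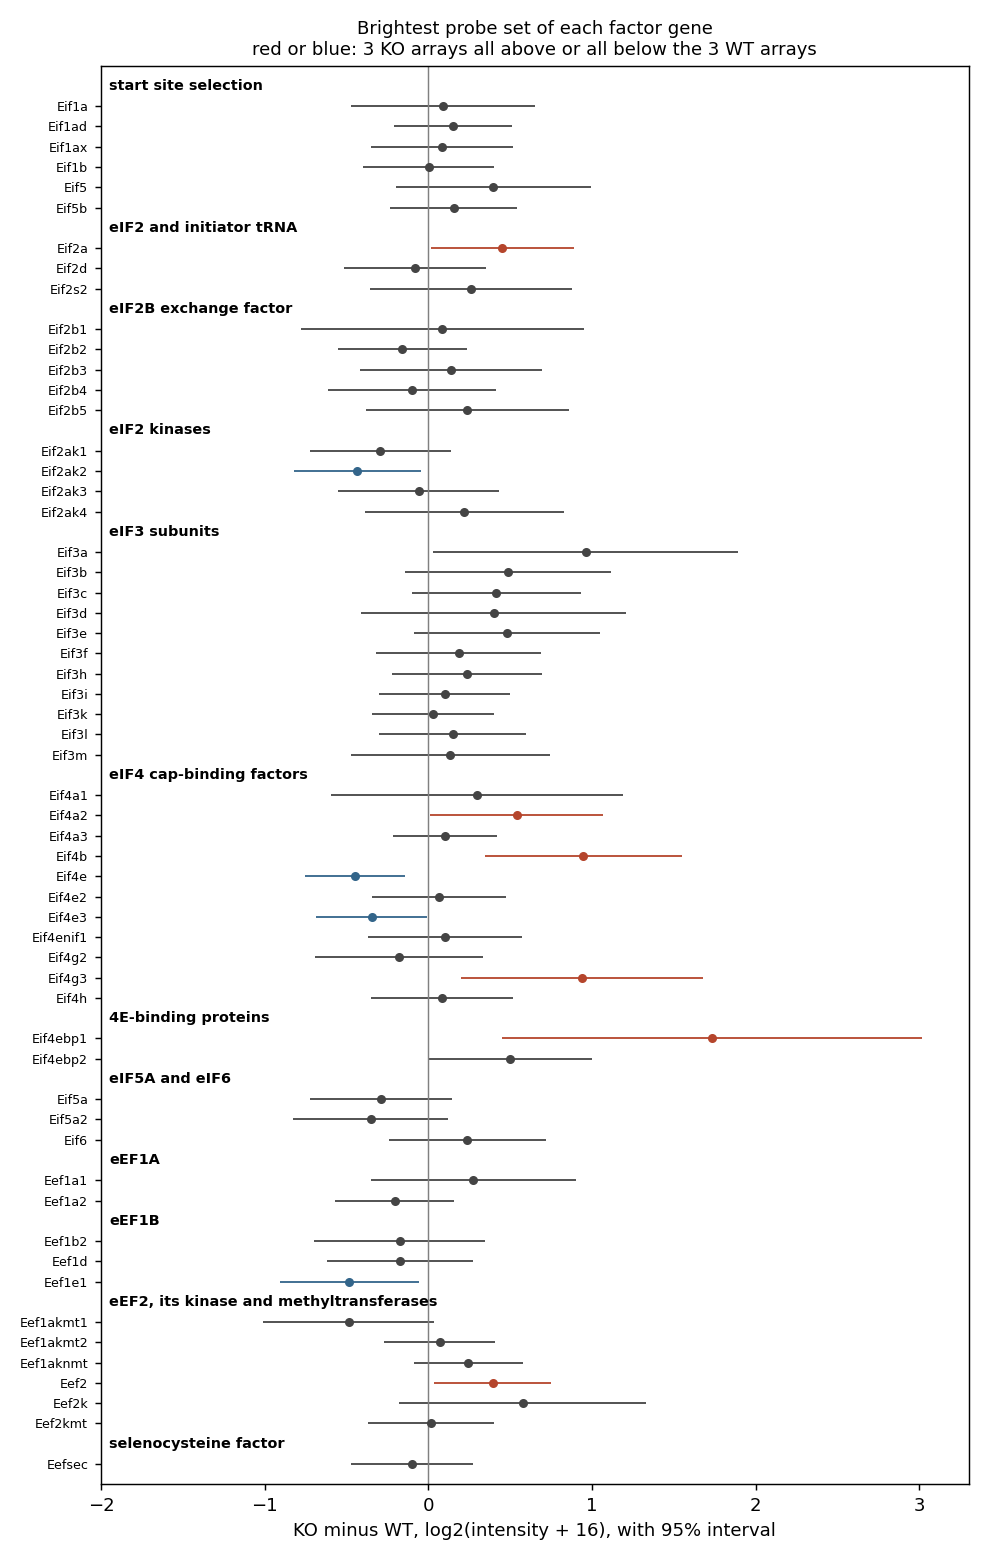
Difference of each factor gene between KO and WT at its brightest probe set, in log2(intensity + 16), with limma's 95% interval, grouped by role. The 11 eIF3 genes all sit above 0 and the interval of Eif3a alone among them stays above it, Eif4ebp1 lies farthest right at 1.74 and Eef1akmt1 farthest left at -0.49.

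The largest difference was in Eif4ebp1, which encodes 4E-BP1, the inhibitor of eIF4E. Its brightest probe set, 1434976_x_at, read 318.4, 710.8 and 1575.4 in KO and 276.8, 192.8 and 155.1 in WT. Each KO array lay above each WT array, with KO replicate 1 close to the highest WT array and KO replicate 3 far above. The means were 868 ± 643 in KO and 208 ± 62.3 in WT (SD, n = 3 each), a log2 difference of 1.74 with an SE of 0.54 and a 95% interval of 0.45 to 3.02 (limma adjusted p = 0.537). Probe set 1417562_at read 251.2, 729.8 and 1377.3 in KO and 245, 177.4 and 120.6 in WT (log2 difference 1.78). The dimmer 1417563_at read 33, 47.7 and 62.8 in KO and 32.1, 16.9 and 15.6 in WT (log2 difference 0.77). In all 3 probe sets the groups did not overlap, but KO replicate 1 exceeded WT replicate 1 by little. The difference of 1434976_x_at was 1.95 with WT replicate 1 left out. It was 2.30 with KO replicate 1 left out and 1.17 with KO replicate 3 left out.

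Eif4ebp2 encodes 4E-BP2, a close relative with the same action on eIF4E. Its brightest probe set, 1437733_at, read 298.3, 492.9 and 425.9 in KO and 317.7, 277.7 and 238.1 in WT, so that KO replicate 1 lay within the WT range. The log2 difference was 0.50 ± 0.21 (SE, adjusted p = 0.583). Of its other 4 probe sets, 1455575_at read 92.2, 112.1 and 127.6 in KO and 84.5, 83.6 and 71.4 in WT without overlap, 1436158_at and 1417084_at had differences of 0.56 and 0.25 with overlap, and 1456613_at lay the other way at 2.4, 1.7 and 4.6 in KO and 13.4, 7.1 and 6.6 in WT. The last of these is below the offset of 16 in each array.

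Eif4e itself, the cap-binding protein that 4E-BPs hold, lay lower in KO. Probe set 1450908_at read 186.1, 182.7 and 176.1 in KO and 277.2, 263.9 and 223.3 in WT. The KO arrays lay close together and below each WT array. The means were 182 ± 5.08 in KO and 255 ± 28.1 in WT, a log2 difference of -0.45 ± 0.13 (SE) with an interval of -0.76 to -0.14 (adjusted p = 0.529). Probe set 1423220_at read 64.3, 75.7 and 36.9 in KO and 133.4, 112.9 and 83.9 in WT, again without overlap (log2 difference -0.77). The other 2 probe sets of Eif4e, at or near the offset, had differences of -0.16 and -0.29 with overlap. Without WT replicate 1 the difference of 1450908_at was -0.39.

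**Figure D2:**
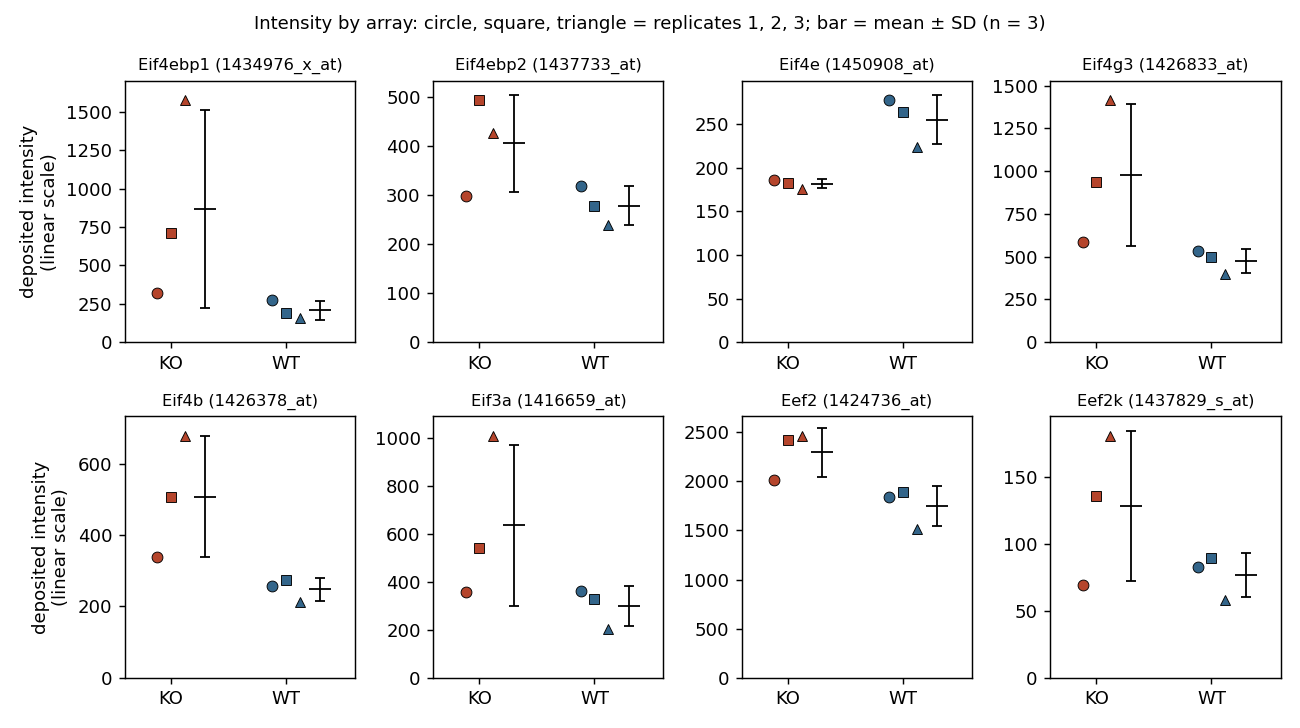
Deposited intensities of 8 probe sets in each array, KO left of WT, on linear axes from 0, with the mean and SD of each group of 3 at the side. Eif4e is lower in each KO array (176.1 to 186.1, against 223.3 to 277.2 in WT). KO replicate 1 lies inside the WT range for Eif4ebp2, Eif3a and Eef2k and next to it for Eif4ebp1, Eif4g3 and Eef2.

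Among the other cap-binding factors, the scaffold Eif4g3 and the helicase cofactor Eif4b were higher in KO. Eif4b, which stimulates the helicase eIF4A, read 340.2, 506.8 and 679.8 in KO and 257.5, 273.5 and 213 in WT at 1426378_at. No WT array reached the lowest KO array. The means were 509 ± 169.8 in KO and 248 ± 31.4 in WT, a log2 difference of 0.95 ± 0.25 (SE, adjusted p = 0.524). Its probe set 1426380_at, at 314.4, 439.1 and 506.6 in KO and 209.8, 210.6 and 150.7 in WT, had the lowest p of the 151 (log2 difference 1.07 ± 0.22 SE, interval 0.55 to 1.58, adjusted p = 0.472). The remaining Eif4b probe set, 1426379_at, read 138.6, 167.7 and 253.4 in KO and 139.2, 165 and 114.5 in WT, where the groups overlapped.

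Eif4g3 encodes eIF4GII, a second scaffold beside eIF4GI. Probe set 1426833_at read 587.4, 937.6 and 1413.3 in KO and 534.3, 496.7 and 396.7 in WT (log2 difference 0.94 ± 0.31 SE, adjusted p = 0.552). The lowest KO array was near the highest WT array and the other 2 KO arrays were well above it. The dimmer probe sets 1440571_at and 1430578_at also did not overlap (differences 1.23 and 0.54), and 1446145_at did (0.02). Without KO replicate 3 the difference of 1426833_at was 0.64. Eif4a2, a helicase gene, read 1211.5, 1427.7 and 2027.5 in KO and 1201.1, 1063 and 882.1 in WT (log2 difference 0.54 ± 0.22 SE, adjusted p = 0.581), with KO replicate 1 just above WT replicate 1 and a difference of 0.33 when KO replicate 3 was left out. Eif4e3, a cap-binding relative of eIF4E, read 126.2, 110.5 and 99.8 in KO and 164.2, 146.5 and 130 in WT (-0.35 ± 0.14 SE, adjusted p = 0.581), without overlap. For Eif4a1, the other helicase gene, Eif4a3, a helicase of the exon junction complex that was under 7 in each array, Eif4e2, a cap-binding repressor, Eif4enif1, which carries eIF4E into the nucleus, Eif4g2, a scaffold that does not bind eIF4E, and Eif4h, the groups overlapped, with log2 differences between -0.18 and 0.30. Eif4a1 and Eif4a2 are close paralogs, so their probe sets may share signal.

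The eIF3 subunits form the scaffold on the small ribosomal subunit. All 11 that were measured had a log2 difference above 0, against 46.8% of all genes. These differences ran from 0.03 for Eif3k to 0.96 for Eif3a, with a median of 0.24. Of their 27 probe sets 24 lay above 0, against 48.4% of all probe sets. With KO replicate 3 left out Eif3m lay below 0 (-0.04), and Eif3d and Eif3i each fell to 0.04. The uniform sign also rested on WT replicate 3. For Eif3k, WT replicates 1 and 2 (387.4 and 303.4) averaged above the KO arrays (331.8, 332.7 and 309.6). The same held for Eif3i, at 796.5 and 649.5 in those WT arrays and 656.8, 688.5 and 767.1 in KO. In 0 of the 11 did the groups separate at the brightest probe set (background 4.51% higher and 8.34% lower), and 0 passed the test. Eif3a, the largest subunit, read 355.1, 541.9 and 1008.1 in KO and 362.9, 329.3 and 203.5 in WT at 1416659_at. KO replicate 1 lay inside the WT range and KO replicate 3 far above it (adjusted p = 0.58). Its probe sets 1448425_at and 1416660_at did not overlap, at 356.8, 474.4 and 992.6 in KO and 299.9, 307.4 and 223.9 in WT for the first, with log2 differences of 0.97 and 0.83. Without KO replicate 3 the difference of 1416659_at was 0.57. Eif3e, a regulatory subunit, read 556.6, 730.3 and 942.6 in KO and 658.2, 478.1 and 435.3 in WT (0.48 ± 0.24 SE, adjusted p = 0.629), with overlap. Eif3f, the subunit that the muscle ubiquitin ligase atrogin-1 marks for breakdown, read 524.8, 674.9 and 676.2 in KO and 714.6, 521.8 and 430.9 in WT. WT replicate 1 was the highest of the 6 arrays for Eif3f (0.19 ± 0.21 SE, adjusted p = 0.862).

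**Figure D3:**
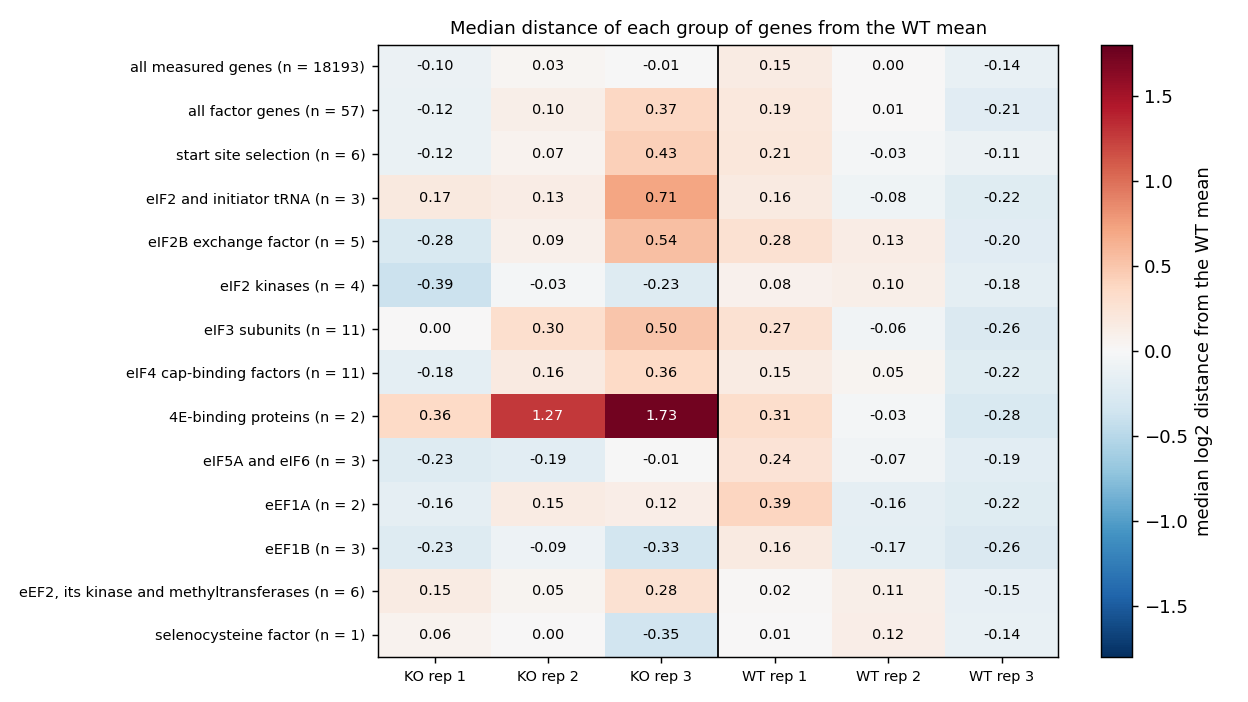
Median log2 distance from the WT mean for the genes of each role, in each array, KO left of WT, with blue below and red above 0. The 11 eIF3 genes stand at 0.00, 0.30 and 0.50 in the KO arrays and 0.27, -0.06 and -0.26 in the WT arrays, and the 57 factor genes at -0.12, 0.10 and 0.37 in KO and 0.19, 0.01 and -0.21 in WT.

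The array medians of the factor genes show that KO replicate 3 stood highest and that KO replicates 1 and 2 lay within the WT range. Over the 57 factor genes the median log2 distance from the WT mean was -0.12, 0.10 and 0.37 in KO replicates 1, 2 and 3. It was 0.19, 0.01 and -0.21 in WT replicates 1, 2 and 3. Over all 18193 genes the medians were -0.10, 0.03 and -0.01 in KO and 0.15, 0.00 and -0.14 in WT. The factor genes lay well above the median of all genes in KO replicate 3 alone (0.37 against -0.01). In KO replicate 2 they lay little above it (0.10 against 0.03), as they did in WT replicate 1 (0.19 against 0.15).

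Genes that act with eIF2 had differences of both signs. Eif2a, which can carry initiator tRNA without eIF2, read 98.2, 89.3 and 127.4 in KO and 71, 88.3 and 58.1 in WT at 1460575_at. The lowest KO array and the highest WT array differed by little (0.45 ± 0.18 SE, adjusted p = 0.58). Eif2s2, the beta subunit of eIF2, read 571.3, 681.5 and 1074.5 in KO and 766.4, 585.6 and 532.6 in WT, with overlap (0.26 ± 0.26 SE, adjusted p = 0.831), and 2 of its 6 probe sets had differences below 0. Eif2d, a factor of ribosome recycling, read 101.2, 62.1 and 88.7 in KO and 100.4, 80.9 and 84.4 in WT. Its dim probe set 1440968_at did not overlap but stayed under 9 in each array. The 5 subunits of eIF2B, the exchange factor that reloads eIF2 with GTP, overlapped between the groups, with differences from -0.16 for Eif2b2 (adjusted p = 0.844) to 0.24 for Eif2b5 (adjusted p = 0.853). Eif2b5, the catalytic subunit, read 81.7, 121.8 and 146.2 in KO and 117.4, 106.9 and 65.2 in WT. Eif2b2, a regulatory subunit, read 174.5, 214.2 and 202.4 in KO and 272.2, 204.5 and 193.5 in WT, where WT replicate 1 was the highest array.

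Of the 4 eIF2 kinases, Eif2ak2, the kinase PKR that double-stranded RNA activates, read 20.5, 29.4 and 23.4 in KO and 38.5, 47.5 and 30.5 in WT. The highest KO array was just below the lowest WT array (-0.43 ± 0.16 SE, adjusted p = 0.564). Eif2ak1, the haem-regulated kinase, read 60.8, 58.6 and 86.7 in KO and 91.3, 99.4 and 71.6 in WT at 1421901_at, with overlap (-0.29 ± 0.18 SE, adjusted p = 0.696). Its 5 probe sets disagreed, since 1436006_at lay higher in each KO array (32.7, 42.2 and 36.3, against 20.6, 28.3 and 26.4 in WT) and the dim 1430696_at lower. Eif2ak3, the kinase PERK of the endoplasmic reticulum, and Eif2ak4, the kinase GCN2 that senses amino acid lack, overlapped between the groups (-0.06 and 0.22).

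The 6 genes placed by symbol under start site selection, Eif1ad among them, had differences from 0.00 to 0.40, with overlap at the brightest probe set of each. Eif5, which triggers GTP hydrolysis by eIF2, read 378.4, 481.3 and 657.6 in KO and 446.5, 403.7 and 282.6 in WT (0.40 ± 0.25 SE, adjusted p = 0.705), and the difference was 0.19 with KO replicate 3 left out and 0.21 with WT replicate 3 left out. The differences of its 5 probe sets lay between 0.35 and 0.50, and 1456256_at did not overlap. Eif1ad read 47.8, 54.2 and 70.1 in KO and 53.3, 45.3 and 50.1 in WT (0.15 ± 0.15 SE, adjusted p = 0.832), and its other probe set lay the other way (-0.23). The X-linked Eif1ax, which helps the scanning ribosome find its start codon, read 161.2, 200.6 and 237.4 in KO and 217.2, 185.6 and 158.7 in WT at its brightest probe set (0.08). At 1449576_at it read 61.7, 61.9 and 28.6 in KO and 105.8, 73.8 and 64.3 in WT, without overlap, so its probe sets disagreed. Eif1ax was the 1 member on the X chromosome.

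Eif5a, the hypusine-carrying factor that helps ribosomes through difficult peptide bonds, read 1732.4, 1791.2 and 1491 in KO and 2566.9, 1937.7 and 1705.1 in WT (-0.29 ± 0.18 SE, adjusted p = 0.703). The groups overlapped, and without WT replicate 1 the difference was -0.12. Its paralog Eif5a2 was below the offset in each array at its brightest probe set, at 0.6, 2.3 and 8.9 in KO and 13.5, 5.7 and 8.6 in WT. Eif6, which keeps the large ribosomal subunit apart from the small one, read 122.2, 151.7 and 203.5 in KO and 149.6, 130.5 and 111.8 in WT, with overlap (0.24 ± 0.20 SE, adjusted p = 0.795).

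Among the elongation factors, Eef2 was higher in each KO array. It read 2011.7, 2420.6 and 2464.2 in KO and 1840.3, 1886.6 and 1515.2 in WT at 1424736_at. The means were 2299 ± 249.6 in KO and 1747 ± 202 in WT, a log2 difference of 0.39 ± 0.15 (SE) with an interval of 0.04 to 0.75 (adjusted p = 0.565). Eef2k, the kinase that inhibits eEF2, read 69.5, 135.6 and 181 in KO and 83, 89.2 and 58 in WT, with KO replicate 1 inside the WT range (0.58 ± 0.32 SE, adjusted p = 0.662). The difference was 0.31 with KO replicate 3 left out and 0.91 with KO replicate 1 left out. A second Eef2k probe set, 1449013_at, read 56.9, 105.2 and 107 in KO and 65.4, 56.1 and 45.4 in WT, and the third, dimmer one lay the other way (-0.25). Eef2kmt, which methylates eEF2, was below the offset in each array.

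Eef1a1 and Eef1a2 encode the eEF1A isoforms, and Eef1a2 takes over from Eef1a1 in muscle after birth. Eef1a2 read 4237.2, 4269.4 and 4556.1 in KO and 6037, 4749.9 and 4416.2 in WT. The KO arrays lay close together and overlapped with WT, and WT replicate 1 was the highest (-0.21 ± 0.15 SE, adjusted p = 0.755, and -0.07 without that array). Eef1a1 read 2139.6, 3277.7 and 2924.9 in KO and 3217.2, 1901.2 and 1880.6 in WT, with overlap (0.28 ± 0.26 SE, adjusted p = 0.825, and 0.53 without WT replicate 1). The log2 ratio of Eef1a1 to Eef1a2 within an array, which cancels a brightness shared by both, was -0.98, -0.38 and -0.64 in KO and -0.90, -1.31 and -1.22 in WT. KO replicate 1 lay within the WT range and the other 2 KO arrays above it. The mean ratio was -0.67 ± 0.30 in KO and -1.15 ± 0.22 in WT (SD, n = 3 each), a difference of 0.48 (two-sided exact permutation p = 0.2, where 0.1 is the smallest that 3 against 3 arrays allow). Each isoform rests on 1 probe set, and the ratio says nothing of which is more abundant.

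**Figure D4:**
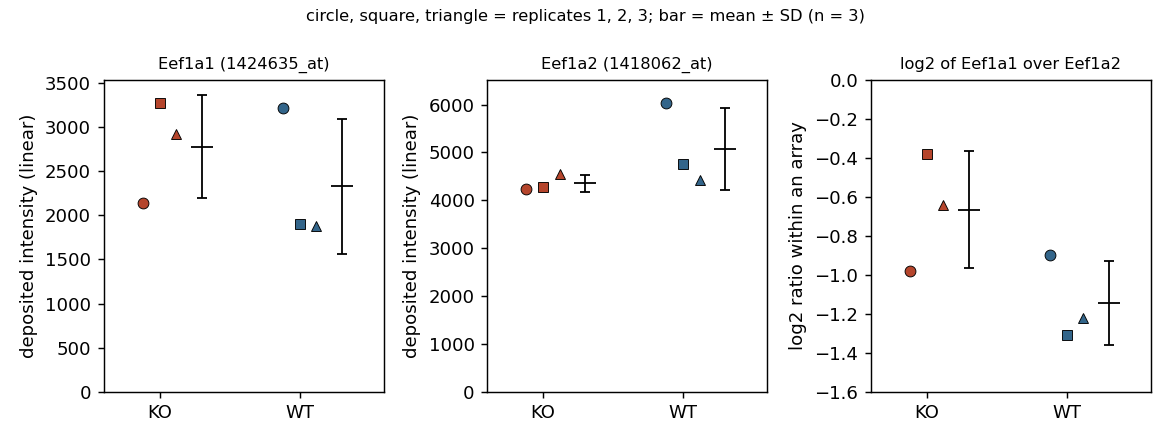
Deposited intensities of Eef1a1 and Eef1a2 and their log2 ratio in each array, KO left of WT, with the mean and SD of each group of 3 at the side. For Eef1a2 the KO arrays read 4237.2 to 4556.1 with WT replicate 1 at 6037, and the ratio of KO replicate 1 (-0.98) falls among the WT ratios.

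Eef1a1 is also used by other cell types of muscle, and in bulk tissue fewer cells of a type and less RNA per cell cannot be told apart. Summed intensities of the fibroblast markers were 2980 to 6250 in KO and 5930 to 10000 in WT, and those of the smooth muscle markers were 179 to 393 in KO and 580 to 885 in WT. The endothelial markers summed to 293 to 534 in KO and 326 to 400 in WT, the macrophage markers to 156 to 291 in KO and 180 to 249 in WT, and the adipocyte markers to 168 to 475 in KO and 358 to 717 in WT. Of the 2 measured nerve and Schwann cell markers, Mbp and S100b, the sums were 127 to 276 in KO and 81.1 to 177 in WT. The 5 slow fibre markers summed to 1030 to 4640 in KO and 522 to 1370 in WT, highest in KO replicate 2. Differences were above 0 in 5 of 5 slow fibre markers, 1 of 4 fibroblast markers, 1 of 3 smooth muscle markers, 3 of 4 endothelial markers, 2 of 4 macrophage markers, 0 of 3 adipocyte markers and 1 of 2 nerve markers. Over all genes 46.8% lay above 0. Acta2 made up most of the smooth muscle sum, at 340.2, 255.1 and 105.4 in KO and 802, 585 and 539.2 in WT. Tagln and Myh11 of that list overlapped, with log2 differences of 0.29 and -0.003. Col1a1 and Col3a1 made up most of the fibroblast sum, with log2 differences of -1.37 and -0.68, against -0.21 for Dcn and 0.45 for Pdgfra. Among these fibroblast markers only Col1a1 did not overlap between the groups. In the other lists Acta2, Lep and S100b were lower in each KO array, and Cd163 and Des higher (background 8.34% lower and 4.51% higher). Cd163 read 30.2, 55.6 and 24.8 in KO and 13.7, 10.3 and 11.6 in WT. S100b read 20.1, 11.6 and 5.0 in KO and 31.6, 29.8 and 26.1 in WT. None of these lists had a member past the adjusted threshold, each list held between 2 and 6 measured genes, and their part in the Eef1a1 values was not tested.

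The eEF1B exchange factors Eef1b2 and Eef1d, which reload eEF1A with GTP, overlapped between the groups, with differences of -0.17 and -0.18. Eef1d read 241.9, 292.1 and 223.9 in KO and 315.2, 330.5 and 223.1 in WT. Eef1e1, which belongs to the complex of tRNA synthetases, read 59, 48.3 and 35.3 in KO and 82.2, 61.9 and 72.1 in WT. No KO array reached the lowest WT array (-0.48 ± 0.18 SE, adjusted p = 0.564). Eef1akmt1, which methylates a lysine of eEF1A, had 4 probe sets with differences from -0.55 to -0.48. Its brightest, 1435269_at, read 54.6, 73.3 and 41.3 in KO and 69.7, 109.2 and 76.5 in WT, with overlap (adjusted p = 0.602), and 1449072_a_at read 25.2, 23.3 and 24.2 in KO and 57.9, 37.4 and 35.8 in WT without overlap. The eEF1A methyltransferases Eef1akmt2 and Eef1aknmt and the selenocysteine factor Eefsec overlapped between the groups, with differences from -0.10 to 0.24. Eefsec, which brings selenocysteine to the ribosome, read 25.7, 24.2 and 15.4 in KO and 24.5, 27.6 and 20.5 in WT.

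The genes around these factors were described by 6 lists, none of which had a member past the adjusted threshold (background 0.0055% of 18193 genes). Over all 18193 genes 46.8% had differences above 0, with a median of -0.02, beside which the list counts and medians below are to be read. In the mTORC1 list 12 of 17 measured genes had differences above 0, with a median of 0.09. With an array left out that median lay between 0.07 and 0.19, highest when KO replicate 2 was dropped. Sesn1, a stress-induced inhibitor of mTORC1, read 151.7, 607.6 and 1438.6 in KO and 160.7, 112.9 and 83.7 in WT, with KO replicate 1 inside the WT range (2.02 ± 0.73 SE, adjusted p = 0.563). Its relative Sesn3 lay the other way, at 46.1, 62.5 and 25.1 in KO and 117.1, 95.8 and 75.9 in WT, without overlap (-0.92 ± 0.26 SE, adjusted p = 0.529). Deptor, which binds and inhibits mTOR, read 179.9, 184.4 and 92.5 in KO and 338.8, 195.5 and 216.6 in WT, also without overlap.

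The list of eIF2 phosphatase and stress response genes had 8 of 10 members above 0 and a median of 0.26, which was 0.08 with KO replicate 3 left out, 0.13 with WT replicate 3 left out and 0.42 with WT replicate 1 left out. Atf4, the transcription factor whose translation rises when eIF2 is phosphorylated, read 401.7, 503.6 and 860.3 in KO and 335.1, 253.2 and 235.8 in WT. Each KO array lay above each WT array (log2 difference 1.0, adjusted p = 0.529). Ppp1r15a, the phosphatase subunit GADD34, read 22.5, 71.9 and 199.3 in KO and 25.2, 25.5 and 25.7 in WT, so that KO replicate 1 was the lowest array. Chac1, an ATF4 target, read 261.3, 447.7 and 384 in KO and 232.5, 269.8 and 108.5 in WT, while Asns, another ATF4 target, read 24.2, 42.5 and 65.5 in KO and 49.2, 44.1 and 45.7 in WT. The groups overlapped for both. Asns was singled out after its values were seen.

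In the list of eIF4F regulators 7 of 11 genes were above 0 (median 0.22). That median was 0.06 with WT replicate 3 left out, 0.09 with KO replicate 2 left out, 0.12 with either KO replicate 3 or WT replicate 2 left out, and 0.41 with WT replicate 1 left out. Mknk2, a kinase that phosphorylates eIF4E, read 820.7, 1266.2 and 1826.7 in KO and 920.5, 764.8 and 498.1 in WT (0.80 ± 0.34 SE, adjusted p = 0.584). The X-linked helicase gene Ddx3x read 373.9, 502 and 707.4 in KO and 417.5, 290.1 and 247.7 in WT (0.69 ± 0.28 SE, adjusted p = 0.58), and Gigyf2, a partner of eIF4E2, read 39.7, 35.6 and 80.9 in KO and 34.5, 35.8 and 28.6 in WT. KO replicate 1 or 2 lay inside the WT range for each of these.

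Of the mitochondrial translation factors, 7 of 8 had differences below 0, with a median of -0.31. In 1 of 8 the KO arrays all lay below WT (background 8.34%). Tufm, the mitochondrial counterpart of eEF1A, read 86.2, 94.5 and 93.8 in KO and 119.1, 128.4 and 102.4 in WT without overlap (-0.30 ± 0.13 SE, adjusted p = 0.591). Tsfm, its exchange factor, read 21.9, 22.2 and 8.4 in KO and 61.7, 28.4 and 21.6 in WT, and Gfm2, a mitochondrial recycling factor, read 99.6, 75 and 51 in KO and 102.3, 113.7 and 89.2 in WT. Both overlapped. The release and recycling list (4 of 9 above 0, median -0.06) and the hypusine enzymes Dhps and Dohh (0 of 2 above 0) overlapped between the groups for each gene. The lowest p in the release and recycling list was that of Hbs1l, a ribosome rescue factor (0.29 ± 0.18 SE, adjusted p = 0.706), followed by the release factor Etf1 (-0.18) and the reinitiation factor Mcts1 (-0.18).

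**Figure D5:**
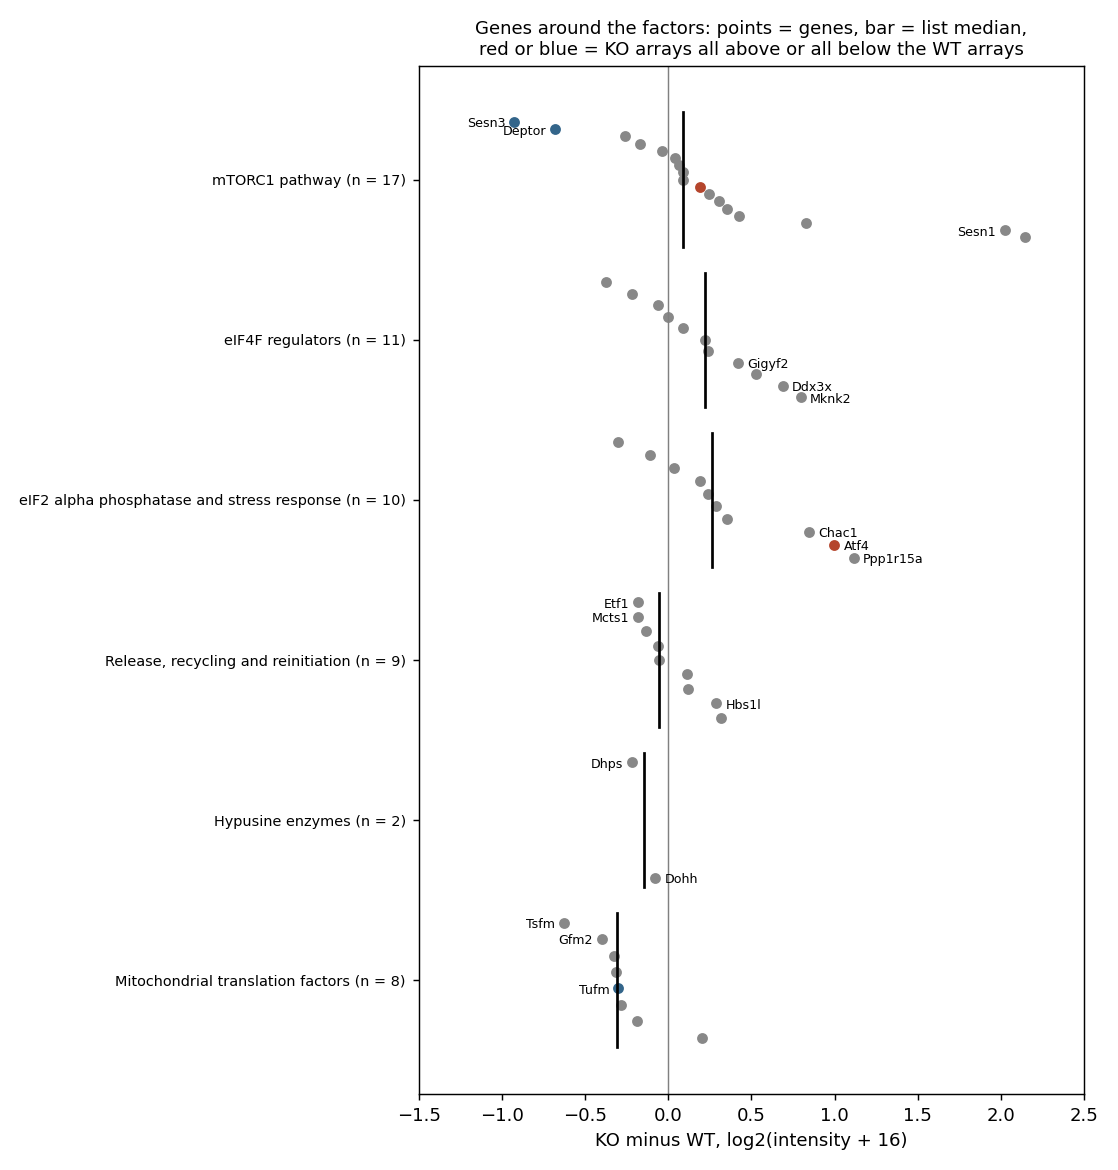
Log2 difference between KO and WT for the genes of the 6 lists around the factors, 1 point a gene, with a bar at each list's median and the 3 genes of lowest p named. The medians run from -0.31 for the mitochondrial factors to 0.26 for the eIF2 phosphatase and stress response list, and Sesn1 (2.02) and Sesn3 (-0.92) lie on opposite sides.

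The probe sets of a gene did not always go the same way. Of the 40 genes with more than 1 probe set, 23 had differences of the same sign in each and 17 did not. By their identifiers, 19 of the 151 probe sets were of the kind that can match unrelated sequences (ending _x_at) and 6 of the kind shared between transcripts of several genes (_s_at). The brightest probe sets of Eif4ebp1 and Eif2b2 are of the first kind and those of Eef2k, Eif1a, Eif3m, Eif4g2, Eif4h and Eif5a of the second. Members were brighter than the array at large, since 21.9% of them had a mean under the offset of 16, against 57% of all probe sets. They lie on 20 chromosomes. Between the 12 genes with CACGTG and the 34 without, the median log2 difference was 0.14 and 0.12, with 9 of 12 and 24 of 34 above 0.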

How the data were processed

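The deposited values are intensities on a linear scale, 1 for each probe set on each array, and 0 columns were left unused. Per the labels' protocols, total RNA was extracted with TriPure and biotin-labelled by the manufacturer's protocol. How the authors scaled the intensities and corrected the background is not given in the sources that were used. Of the probe sets, 64 manufacturer's controls were left out. Intensities were tested as log2(value + 16) without further normalization, with limma 3.58.1 (lmFit, eBayes) in R 4.3.3, two-sided, with Benjamini-Hochberg adjustment over 45037 probe sets and a threshold of 0.05. The fit was tested on simulated data. The platform annotation gave 1 symbol for 34945 probe sets, several for 932 and none for 9160. Each gene was represented by its probe set of highest mean. Values in each array are given for a fixed set of genes, the 2 genes of lowest p in each role and those without overlap, and the 3 genes of lowest p in each list are named. Eif3f and Asns were named after its values were seen. The members, roles, lists and motifs were chosen with earlier results of these data known. Promoter sequences are RefSeq's for GRCm38.p6. With 3 arrays a group, precision is limited by their number. The exact permutation test used scipy 1.17.1. Alternatives were quantile normalization, median centring, other offsets (1 and 64), the replicate number as a block, leaving out each array, a robust and trended variance, averaging the probe sets of a gene, testing the brighter probe sets alone (above the median level), and a threshold of 0.01.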

Additional observations from a re-analysis of the deposited data

How the results depend on the processing

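No member and no list gene was called by limma under any alternative run, and the lowest adjusted p of a member was 0.0844, under the filter above the median level (127 members kept). Of the members, 20 were higher in KO at an unadjusted p under 0.05. That count was 10 with the replicate block and 10 with an offset of 1. With an array left out it lay between 5 and 37 (5 when WT replicate 3 was dropped and 10 for WT replicate 2, against 37 when KO replicate 1 was dropped, 9 for KO replicate 2 and 10 for KO replicate 3). The count of those lower, 10, was 2 of the 127 kept with the filter, 2 with a trended and robust variance and 2 with an offset of 1. Shares over all probe sets are not given for the block, filter, variance and offset settings. For those settings a move of the members cannot be told apart from one of the whole array. With an array left out the lower count lay between 3 and 12. It was 3 without WT replicate 1 (1.99%, against 2.87% of all probe sets) and 6 without KO replicate 2 (3.97%, against 4.51%). Over all probe sets 4 were called, against 9 with quantile normalization, 11 with median centring and 79 of the 22518 kept by the filter. The count was 15 with a trended and robust variance, 0 with the replicate block, 1 with an offset of 64 and 2 at a threshold of 0.01. With an array left out 1 to 6 were called (2 when KO replicate 3 was dropped, and 1 on dropping KO replicate 2 or either of WT replicates 1 and 2). The Eef1a1 to Eef1a2 difference lay between 0.339 and 0.64. With an array left out, Eefsec lay between -0.17 and 0.03, Eif1ax between -0.04 and 0.22 and Eif2d between -0.2 and 0.09, so each changed sign. Eefsec was 0.03 without KO replicate 3, Eif1ax -0.02 without WT replicate 3 and -0.04 without KO replicate 3, and Eif2d 0.09 without KO replicate 2. Of the 30 genes given by array, the difference of 19 moved by over 1.5 times with some array left out, and these 3 among them changed sign. The median of the release and recycling list, -0.057, also changed sign, at 0.027 with the filter and, with an array left out, at 0.067 (WT replicate 1), 0.028 (WT replicate 2), 0.074 (KO replicate 1) and 0.077 (KO replicate 2). The cause of these moves was not tested. Deviations from the group means correlated between same-numbered KO and WT arrays at -0.005, 0.021 and -0.04, so the numbers are not taken to pair the mice. For 33 of the probe sets the mean signal lay under the offset of 16, which limits what they can show.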

Other observations

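Eif2s3x, the X-linked gene for the gamma subunit of eIF2, was left out of the members and is given here as values. Probe set 1421895_at read 81.6, 101.0 and 97.8 in KO and 57.6, 64.9 and 60.4 in WT (log2 difference 0.50, limma adjusted p = 0.524), and 1423744_x_at read 440.8, 456.2 and 417.7 in KO and 365.8, 307.2 and 239.4 in WT (0.52, adjusted p = 0.55). The groups did not overlap in either. At 1451090_a_at the values were 445.5, 418 and 449.9 in KO and 454.1, 264.7 and 198.7 in WT, and WT replicate 1 was the highest array. Its Y-linked counterpart Eif2s3y was near 0 in each KO array.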
